A study of Rattus norvegicus and Mus musculus with 17 samples.

Results

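The mitochondrial ribosomal proteins described here are the genes whose symbol begins with Mrpl or Mrps followed by a digit. They made up 60 of the 11532 genes listed in any of 3 deposited tables of liver gene expression: 25 of 4649 genes in the table of carcinogen-treated mouse liver, 50 of 9082 in the table of Morris hepatoma and 19 of 2093 in the table of regenerating rat liver. A gene entered a table through a p-value under 0.05 in the authors' own test. By the same naming rule the reference annotations hold 78 protein-coding genes in mouse and 81 in rat, and the listed members are therefore a selection made on the same libraries that are tested below.

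Mitochondria carry their own ribosome, the mitoribosome, which makes the few proteins encoded by mitochondrial DNA, all of them subunits of the respiratory chain and the ATP synthase. Its RNAs come from mitochondrial DNA, whereas its proteins are encoded in the nucleus, made in the cytosol and imported. In the large subunit (Mrpl genes) and the small subunit (Mrps genes) alike, some proteins have counterparts in bacterial ribosomes and others are specific to mitochondria. A few names mislead: Mrps18a and Mrps30 sit in the large subunit, and Mrps36 is now known as a part of the oxoglutarate dehydrogenase complex of the citric acid cycle rather than of the ribosome. The liver is rich in mitochondria, and its cells depend on them for urea synthesis, fatty acid oxidation and gluconeogenesis.

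RNA was sequenced from 17 liver or tumour samples of male animals, 6 of mouse and 11 of rat. DEN mice were C57BL/6 animals given 50 mg/kg diethylnitrosamine (DEN), a liver carcinogen, at 14 days of age and 2 mg/kg TCPOBOP, a liver tumour promoter, 30 days later. Their livers were taken at 8 months with tumours (n = 3) or at 5 months before tumours appeared (n = 3), so both groups carried the same treatment and differed in age as well as in tumours. Morris hepatomas (n = 4) came from 10-week-old ACI rats whose liver had received MH3924a cells, a transplantable rat hepatoma line, 2 weeks earlier. Regenerating livers (n = 4) were taken from rats of 10 to 12 weeks, 24 hours after removal of 2/3 of the liver. Livers of untreated, age-matched ACI rats (n = 3) served as the control of both rat comparisons, and their values were identical in both tables in all 1752 genes listed in both. All hepatomas stem from 1 cell line. Nothing in the labels ties a library to an animal of its own. The p-values below therefore reflect how far libraries of a group lie apart, which may be technical.

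Expression is given as RPKM, a read density corrected for transcript length and library size, so levels of different genes may be compared within a table. A difference was called when limma's moderated test on log2(RPKM + 1) gave an adjusted p under 0.05, with the adjustment over all annotated protein-coding genes. In bulk tissue, fewer cells of a type and less RNA per cell cannot be told apart. The libraries were not even: among the rat controls, library 3 had the lowest value in 39 of the 50 members of the hepatoma table, and its summed member level was 858 RPKM, against 1133 and 1114 RPKM in control libraries 1 and 2. Among the hepatomas, library 2 had the highest value in 33 of the 50 members. Hepatoma libraries 3 and 4 also held transcripts of hepatocytes. The summed level of 6 of the 9 hepatocyte markers that the table lists (Alb, Ttr, Tf, Apoa1, Apob and Serpina1) was 1098, 103.5, 27370 and 22230 RPKM in hepatoma libraries 1 to 4, against 98840 to 115900 RPKM in controls. The defining marker Alb, serum albumin, stood at 19.0 RPKM in hepatoma library 2 and at 48190 RPKM or more in every control. All 50 members had values in every library.

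The listed members had lower RPKM in livers with DEN tumours than in DEN livers before tumours. All 25 listed members were lower with tumours, with no overlap between the groups, and the summed member level was 782, 737 and 715 RPKM in the 3 livers with tumours, against 1121, 1213 and 1119 RPKM in the 3 livers before tumours. Of these, 13 fell at an adjusted p under 0.05 (limma), none rose, and 12 did not pass. At an unadjusted p under 0.05, 21 were lower and 0 higher. The listing itself required a p under 0.05 in the authors' own test, so that count was largely set beforehand. Most listed genes were lower as well. The median member changed by -0.55 on the log2 scale and the median of all 3684 tested genes by -0.56. Of all tested genes 67.3% changed, 49.5% fell and 17.9% rose. In 75.1% every library with tumours lay below every library before tumours, and in 24.9% every library with tumours lay above. After scaling each library to its median over tested genes 2 members were lower, beside 633 of all 3684 tested genes. After quantile normalization 0 members were lower, beside 589 of all. The median of all tested genes moved up by 0.37 and 0.40.

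The largest falls were in proteins of the large subunit and in Mrps36. Mrpl4 (GeneID 66163), the counterpart of the bacterial protein that lines the peptide exit tunnel, had 17.3, 18.2 and 21.9 RPKM in livers with tumours, against 42.1, 41.2 and 36.6 RPKM in livers before tumours. Its level was about the same in all 3 livers with tumours and lower there than in any liver before tumours, a log2 fold change of -1.03 ± 0.14 (SE; adjusted p = 0.0027, limma). Mrpl14, whose bacterial counterpart lies at the interface between the subunits, had 65.3, 51.9 and 52.5 RPKM with tumours, against 109.6, 132.0 and 102.4 RPKM before tumours. It was the member with the largest loss of RPKM among those that fell, and its log2 fold change was -1.01 ± 0.16 (adjusted p = 0.0056, limma). Mrpl28 had 22.5, 26.2 and 27.0 RPKM with tumours and 48.9, 47.3 and 50.8 RPKM before tumours. Mrpl18, a protein of the central protuberance of the large subunit, had 17.4, 17.7 and 19.2 RPKM with tumours and 30.5, 39.4 and 35.8 RPKM before tumours. In both genes the groups lay far apart relative to their spread, with log2 fold changes of -0.93 ± 0.13 and -0.92 ± 0.14 (adjusted p = 0.0031 and 0.0043, limma). In the small subunit, Mrps24, counterpart of a bacterial protein at the mRNA entry channel, had 43.4, 32.7 and 32.5 RPKM with tumours and 58.1, 65.6 and 67.0 RPKM before tumours. The first liver with tumours was closer to the other group than the rest, and the call on Mrps24 (-0.81 ± 0.16, adjusted p = 0.013, limma) did not hold when library 2 of the earlier group or library 3 of the tumour group was left out (adjusted p = 0.063 and 0.051). Mrps36 (GeneID 66128), the subunit of the oxoglutarate dehydrogenase complex, fell most, to 18.0, 19.2 and 17.3 RPKM with tumours, against 39.5, 44.3 and 32.1 RPKM before tumours (-1.04 ± 0.15, adjusted p = 0.0033, limma). Mrps36 has 3 annotated mouse pseudogenes, and reads of such copies may have been counted with it.

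The members with the largest adjusted p and the most abundant member did not pass. Mrps21, the counterpart of a small bacterial protein of the small subunit, was the most abundant member, with 148.0, 108.2 and 118.4 RPKM with tumours and 159.1, 172.3 and 169.2 RPKM before tumours. Its first liver with tumours lay close to the livers before tumours, and the change of -0.43 ± 0.16 did not pass (adjusted p = 0.18, limma). Mrpl10 and Mrpl11, whose bacterial counterparts belong to the base of the stalk that recruits translation factors, had the largest adjusted p. Mrpl11 had 7.16, 7.49 and 7.34 RPKM with tumours and 7.89, 7.98 and 8.88 RPKM before tumours. Mrpl10 had 28.3, 27.5 and 30.7 RPKM with tumours and 36.1, 33.9 and 31.1 RPKM before tumours. The groups of both came within 1 RPKM of each other, at log2 fold changes of -0.15 ± 0.12 and -0.22 ± 0.13 (adjusted p = 1 and 0.79, limma). Under both scalings these 3 members had positive log2 fold changes. By place, 10 of 20 members of the large subunit and 2 of 4 of the small subunit fell, beside 49.5% of all tested genes, with medians of -0.54 and -0.60. By origin, 10 of 16 members with a bacterial counterpart and 2 of 8 mitochondria-specific members fell, with medians of -0.66 and -0.43, and the difference between these classes was not tested. Of all 25 members, only 2 were lower after median scaling and 0 after quantile normalization.

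**Figure D1:**
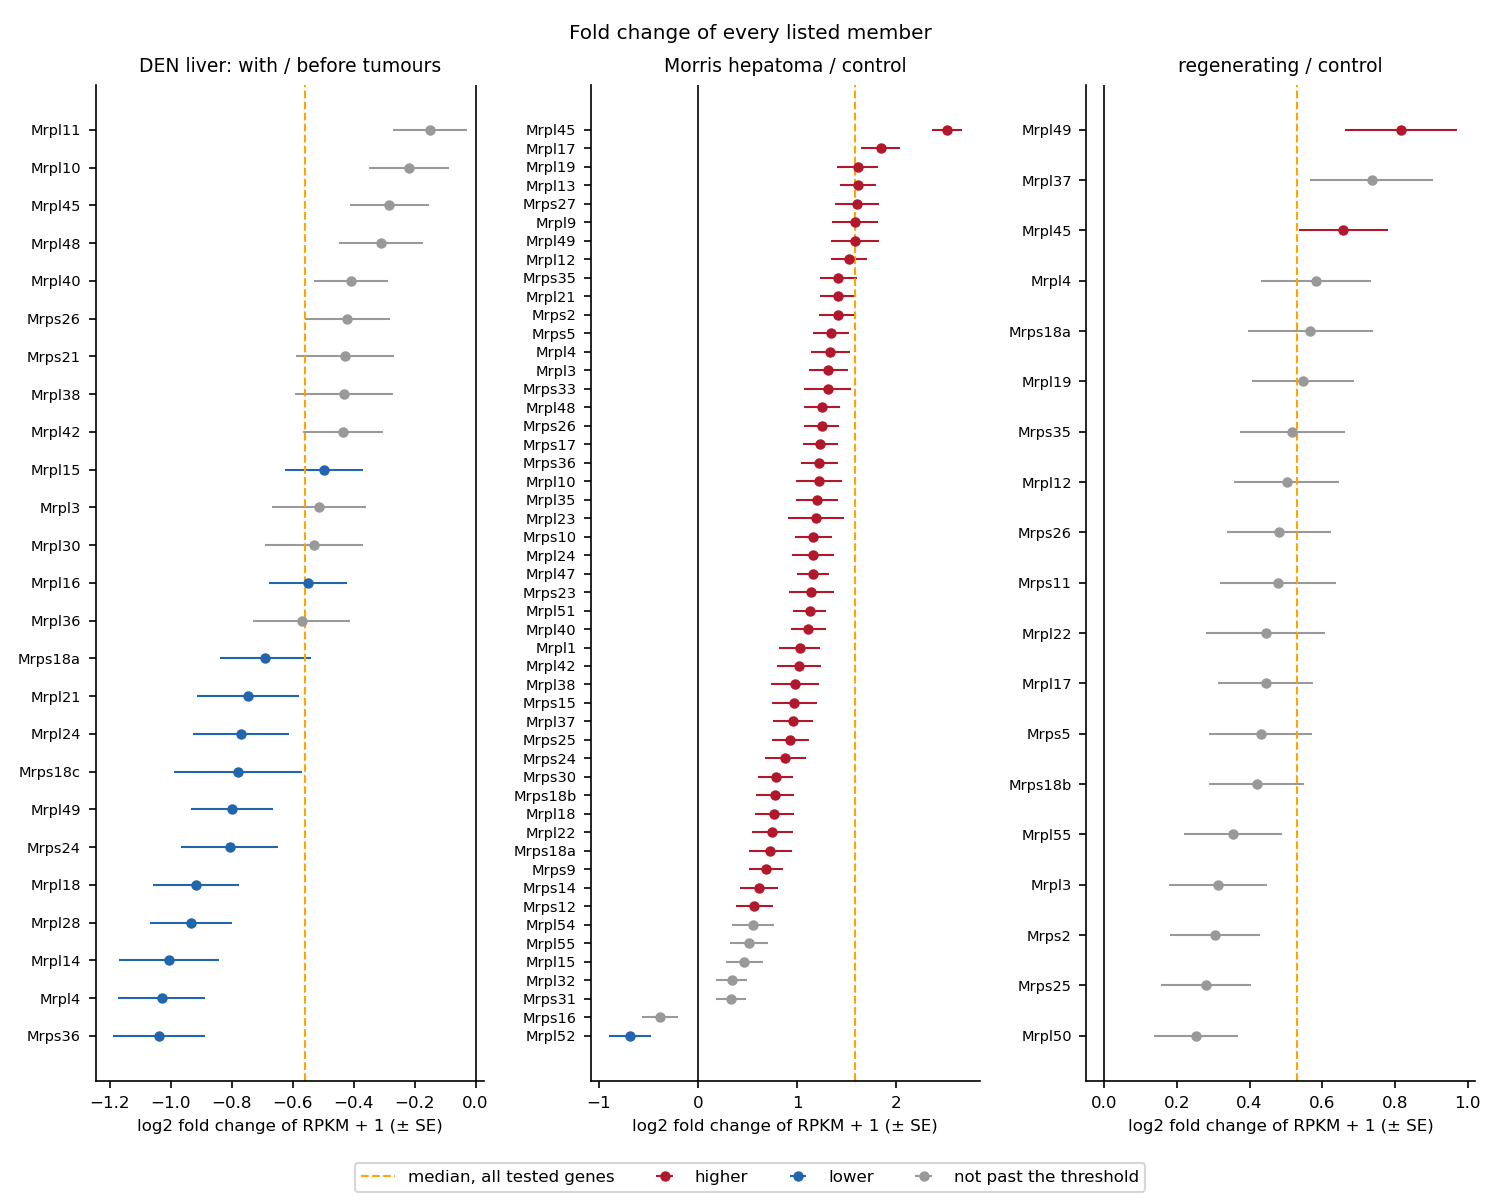
Log2 fold change of RPKM + 1 with its standard error for every listed member in livers with DEN tumours over livers before tumours (n = 3 each), Morris hepatoma over control (n = 4 and 3) and regenerating over control liver (n = 4 and 3), ordered by size. Red points rose, blue points fell and grey points did not pass an adjusted p of 0.05 (limma); the dashed line is the median of all tested genes, -0.56, 1.58 and 0.53, and all 25 DEN members lie left of 0, 48 of 50 hepatoma members and all 19 regenerating members right of it.

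Of 27 tested genes in 5 lists of other genes of mitochondrial gene expression, put together from textbook knowledge, 12 fell in livers with DEN tumours and 0 rose, beside 49.5% of all tested genes lower. Among these, 2 of 3 tested translation factors fell, among them the elongation factor Gfm1 at 11.2 ± 1.90 RPKM with tumours and 23.1 ± 2.50 RPKM before tumours (SD, n = 3 each). Of 10 tested aminoacyl-tRNA synthetases and their partners 4 fell, of 6 ribosome assembly factors 3, of 5 genes of mitochondrial DNA replication and transcription 3, and of 3 ribosomal proteins with other names none, with none higher in any of these lists (limma). Between 0 and 1 genes of each of these lists were lower after either scaling. Among the regulators of mitochondrial biogenesis, the receptor Esrra was at 3.95 ± 0.517 RPKM with tumours and 9.61 ± 0.986 RPKM before tumours. The coactivator Ppargc1b was at 0.636 ± 0.0931 RPKM with tumours and 1.87 ± 0.445 RPKM before tumours, whereas Myc was at 6.68 ± 0.688 RPKM with tumours and 3.84 ± 0.683 RPKM before tumours. These 3 kept their calls after both scalings, the first 2 lower and Myc higher. Markers of several cell types moved beside these falls. The summed level of Alb, Apoa1 and Serpina1a was 122200 to 137900 RPKM with tumours, against 37740 to 50270 RPKM before tumours, with Alb and Apoa1 called higher and Serpina1a not past the test, and that of Pecam1, Cdh5 and Emcn 22.1 to 36.8 RPKM with tumours, against 12.7 to 17.9 RPKM before tumours, all 3 called higher. The bile duct gene Sox9 was called higher, at 9.86 ± 1.62 RPKM with tumours and 3.58 ± 1.06 RPKM before tumours. Among macrophage genes Cd68 was called higher, at 20.2 ± 1.22 RPKM with tumours and 14.5 ± 0.695 RPKM before tumours, and Clec4f, of Kupffer cells, lower, at 9.29 ± 5.85 RPKM with tumours and 33.9 ± 5.05 RPKM before tumours. The erythroid gene Alas2 was lower, at 6.73 to 15.0 RPKM with tumours, against 67.8 to 79.9 RPKM before tumours. The part of these markers in the falls was not tested.

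The listed members had higher RPKM in Morris hepatoma than in control liver. The summed level of the 50 listed members was 1962, 2358, 1841 and 1920 RPKM in the 4 hepatomas, against 1133, 1114 and 858 RPKM in the 3 controls. Of the 50 members 43 rose, 1 fell and 6 did not pass (limma, adjusted p under 0.05), and in 48 every hepatoma lay above every control. Here too the background is high: 94.3% of all 8233 tested genes changed, 85.5% rose and 8.73% fell, and 87.2% had every hepatoma above every control. The median member rose by 1.15 on the log2 scale, which is 0.43 less than the median of all tested genes, 1.58. When each library was scaled to its median the picture turned round, with 1 member higher and 32 lower. Of all 8233 tested genes, 2574 were then higher and 2200 lower. Quantile normalization left 2 members higher and 15 lower, beside 2514 and 1878 of all. The median of all tested genes moved by -1.48 and -1.47. The rises below are therefore changes in RPKM as deposited and not relative to the other listed genes. Without hepatoma libraries 3 and 4, which held the hepatocyte transcripts, 36 members were higher and 0 lower (limma). Of all 8191 genes tested in that fit, 6652 were higher and 926 lower.

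Mrpl45 (GeneID 287656) rose more than any other member. It belongs to the mitochondria-specific proteins of the large subunit and anchors the ribosome to the inner membrane beside the exit of the peptide tunnel. It had 26.5, 25.2, 21.1 and 23.4 RPKM in hepatoma, against 3.23, 3.43 and 3.52 RPKM in control liver. The 4 hepatomas were alike and all far above the controls, at 24.0 ± 2.35 RPKM in hepatoma and 3.39 ± 0.15 RPKM in controls (SD, n = 4 and 3), a ratio of means of 7.09 and a log2 fold change of 2.51 ± 0.15 (adjusted p = 1.2e-06, limma). Mrpl45 was also called higher after median scaling (0.84, adjusted p = 0.0018, limma) and after quantile normalization (0.86, adjusted p = 0.0012, limma). Its change was larger than that of 79.7% of all tested genes, and in the rat it has 1 annotated pseudogene, Mrpl45-ps1, whose reads may have been counted with it.

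Next came proteins of the large subunit with bacterial counterparts. Mrpl17, which in bacteria lies at the exit of the peptide tunnel, had 89.0, 122.7, 78.1 and 84.4 RPKM in hepatoma, against 24.6, 25.3 and 25.1 RPKM in controls. The controls were nearly equal and hepatoma library 2 was the highest, with a log2 fold change of 1.84 ± 0.20 (adjusted p = 3.4e-05, limma), and 2 annotated pseudogenes make the assignment of its reads uncertain. Mrpl19 had 19.3, 24.6, 15.2 and 16.7 RPKM in hepatoma, against 5.65, 6.51 and 4.34 RPKM in controls, and Mrpl13 had 35.8, 48.8, 37.4 and 40.2 RPKM in hepatoma, against 14.0, 13.0 and 10.7 RPKM in controls. In both, control library 3 was the lowest control and hepatoma library 2 the highest hepatoma, and each had a log2 fold change of 1.61 (SE 0.21 and 0.18, adjusted p = 0.00011 and 4.5e-05, limma). Mrps27, a mitochondria-specific RNA-binding protein of the small subunit, had 23.6, 24.5, 16.4 and 20.7 RPKM in hepatoma, against 8.59, 6.24 and 4.53 RPKM in controls (1.60 ± 0.22, adjusted p = 0.00021, limma). Mrpl49, mitochondria-specific, had 26.0, 51.7, 29.7 and 29.1 RPKM in hepatoma, against 11.5, 10.5 and 9.05 RPKM in controls (1.58 ± 0.24, adjusted p = 0.00038, limma). The second hepatoma stood far above the other 3 in Mrpl49, which still lay above every control. Under median scaling the log2 fold changes of Mrpl17, Mrpl19, Mrpl13, Mrps27 and Mrpl49 were negative, and under quantile normalization those of Mrpl19 and Mrps27.

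Mrpl52 (GeneID 361037), a mitochondria-specific protein of the large subunit, was the only member that fell. It had 53.8, 43.4, 64.8 and 46.9 RPKM in hepatoma, against 95.8, 91.0 and 67.2 RPKM in control liver, so that the highest hepatoma came within 3 RPKM of the lowest control, control library 3. The log2 fold change was -0.69 ± 0.21 (adjusted p = 0.031, limma). The call did not hold without control library 1 or 2 or without hepatoma library 1, 2 or 4 (adjusted p from 0.065 to 0.14). The log2 fold changes were -0.71 to -0.59 in these fits. After median scaling and quantile normalization Mrpl52 was called lower, at -2.55 and -1.69 (adjusted p = 4.6e-05 and 0.00032, limma). Mrps16, counterpart of a bacterial assembly protein of the small subunit, pointed the same way with overlap. It had 33.2, 41.4, 38.7 and 35.5 RPKM in hepatoma, against 55.0, 51.2 and 40.6 RPKM in controls, and the change of -0.38 ± 0.18 did not pass (adjusted p = 0.18, limma). After median scaling and quantile normalization Mrps16 was called lower, at -2.23 and -1.56 (adjusted p = 2.8e-05 and 4.8e-05, limma). Mrpl32, whose precursor is cut by the m-AAA protease before it joins the ribosome, had 32.4, 32.1, 31.6 and 28.4 RPKM in hepatoma, against 24.97, 26.0 and 22.2 RPKM in controls. These groups did not overlap, but the change of 0.34 ± 0.16 did not pass (adjusted p = 0.16, limma), and Mrpl32 was called lower after median scaling and quantile normalization, at -1.49 and -1.01 (adjusted p = 6.7e-05 and 0.00049, limma). The other members that did not pass were Mrpl54, Mrpl55, Mrpl15 and Mrps31, each above every control in all hepatomas. Mrpl54, the most abundant member of the table, had 98.0, 144.2, 116.7 and 147.9 RPKM in hepatoma, against 86.5, 95.9 and 73.6 RPKM in controls (0.55 ± 0.21, adjusted p = 0.083, limma). It was called lower after median scaling, at -1.32 (adjusted p = 0.00086, limma), and did not pass after quantile normalization, at -0.24 (adjusted p = 0.81, limma).

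The shares that rose were near the 85.5% of all tested genes in both subunits and both classes. In hepatoma 26 of 31 members of the large subunit rose and 1 fell, with a median of 1.16, and 16 of 18 members of the small subunit rose, with a median of 1.06. Among members with a bacterial counterpart 25 of 28 rose (median 1.18), and among mitochondria-specific members 17 of 21 rose and 1 fell (median 1.02). Member levels spanned 6.78 to 126.7 RPKM in hepatoma and 3.21 to 85.3 RPKM in controls, as means per gene.

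**Figure D2:**
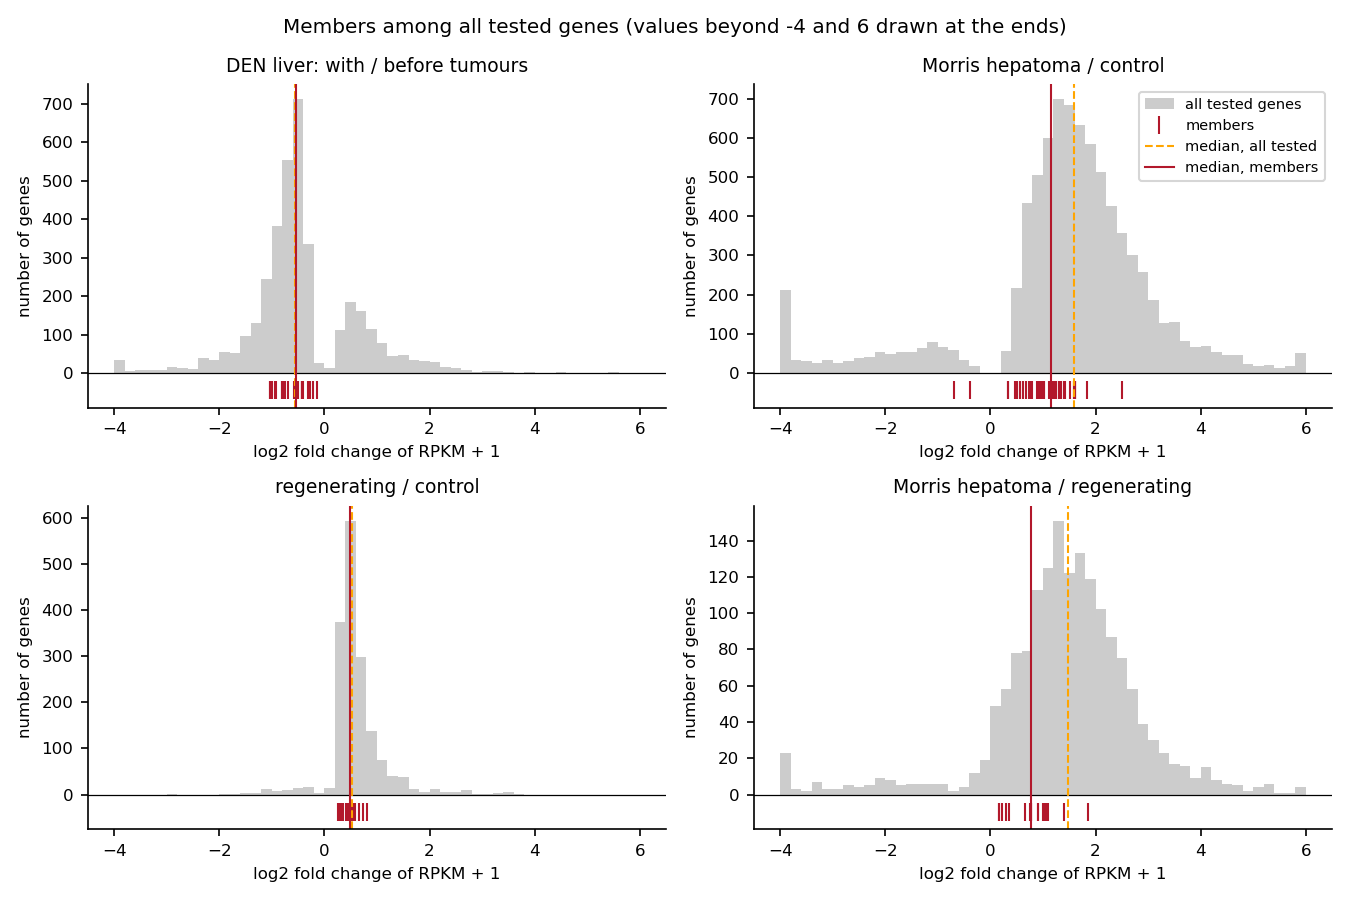
Histograms of the log2 fold change of all tested genes (grey), with each member as a red tick below, for the 4 comparisons; values beyond -4 and 6 are drawn at the ends. The red line marks the median of the members and the dashed line that of all tested genes: -0.55 and -0.56 for DEN liver, 1.15 and 1.58 for hepatoma over control, 0.48 and 0.53 for regenerating over control, and 0.77 and 1.47 for hepatoma over regenerating liver.

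Of 52 tested genes in 5 lists of other genes of mitochondrial gene expression, 47 rose in hepatoma and 1 fell, beside 85.5% of all tested genes higher and 8.73% lower. All 17 tested ribosome assembly factors rose, led by Noa1 at 12.1 ± 3.30 RPKM in hepatoma and 1.65 ± 0.440 RPKM in controls, Rpusd4 at 15.2 ± 3.81 RPKM in hepatoma and 3.07 ± 0.636 RPKM in controls and Ngrn at 20.9 ± 3.46 RPKM in hepatoma and 4.95 ± 1.05 RPKM in controls (SD, n = 4 and 3). Of 15 aminoacyl-tRNA synthetases and partners 14 rose, of 4 translation factors 3, and of 4 ribosomal proteins with other names all 4, with Ptcd3 at 53.0 ± 9.15 RPKM in hepatoma and 8.50 ± 1.76 RPKM in controls. Of 12 genes of mitochondrial DNA replication and transcription 9 rose, with Tfam, which packages mitochondrial DNA, at 64.3 ± 12.8 RPKM in hepatoma and 12.6 ± 2.08 RPKM in controls, and 1 fell, the polymerase subunit Polg2, at 4.58 ± 0.708 RPKM in hepatoma and 6.93 ± 0.517 RPKM in controls. All 7 tested regulators of mitochondrial biogenesis rose, with Myc at 107.7 ± 24.6 RPKM in hepatoma and 9.09 ± 2.18 RPKM in controls, Nrf1 at 17.0 ± 3.83 RPKM in hepatoma and 1.85 ± 0.691 RPKM in controls and the coactivator Pprc1 at 13.7 ± 2.78 RPKM in hepatoma and 1.63 ± 0.190 RPKM in controls. After median scaling 1 assembly factor was higher and 3 lower, 1 synthetase higher and 4 lower, 0 translation factors higher and 4 lower, 0 genes of DNA replication and transcription higher and 7 lower, and 3 regulators higher and 1 lower. After quantile normalization 0 assembly factors were higher and 3 lower, 0 synthetases higher and 4 lower, 0 translation factors higher and 3 lower, 1 gene of DNA replication and transcription higher and 5 lower, and 3 regulators higher and 1 lower. Of the 4 ribosomal proteins with other names 1 was higher and 2 lower after median scaling, and 1 higher and 0 lower after quantile normalization. Markers of other cells moved beside these rises. The summed level of Col1a1, Col1a2, Col3a1 and Dcn was 409.1 to 1034 RPKM in hepatoma, against 18.4 to 72.9 RPKM in controls. That of Pecam1 and Cdh5 was 41.2 to 70.5 RPKM in hepatoma, against 5.55 to 10.2 RPKM in controls, each of these genes called higher. The macrophage genes Cd68 and Cd163 and the T cell gene Cd3g were called higher. Clec4f, of Kupffer cells, was called lower, at 16.0 ± 11.4 RPKM in hepatoma and 80.4 ± 10.9 RPKM in controls. Cd68, Cd163 and Clec4f summed to 121.2 to 164.5 RPKM in hepatoma and 109 to 132.9 RPKM in controls. None of the 6 hepatocyte markers passed (adjusted p from 0.11 to 0.31, limma). The part of these markers in the rises was not tested.

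Promoters are shown for Mrpl45, Mrpl17, Mrps27 and Mrpl49, those of the 6 members named for the largest rises that matched the RefSeq table, for Mrpl4, which is set against the DEN model below, and for Mrpl52, the member that fell. The stretch runs from 170 bases before the annotated start to 30 bases after it in RefSeq GRCr8, 5′ to 3′ along the gene, and was available for 43 of the 52 members listed in the rat tables. Capitals mark the letters of 5 motifs searched on both strands: GCATGCG for nuclear respiratory factor 1 (NRF1), CCGGAAG for ETS factors such as GABPA, CACGTG for the E-box of MYC, AAGATGG for YY1 and CCAAT.
Mrpl45 (chr10:82804869-82805068, plus strand): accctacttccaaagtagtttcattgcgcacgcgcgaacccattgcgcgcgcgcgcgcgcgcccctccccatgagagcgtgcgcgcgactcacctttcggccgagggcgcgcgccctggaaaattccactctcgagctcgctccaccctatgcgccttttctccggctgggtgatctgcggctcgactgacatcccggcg
Mrpl17 (chr1:169575670-169575869, minus strand): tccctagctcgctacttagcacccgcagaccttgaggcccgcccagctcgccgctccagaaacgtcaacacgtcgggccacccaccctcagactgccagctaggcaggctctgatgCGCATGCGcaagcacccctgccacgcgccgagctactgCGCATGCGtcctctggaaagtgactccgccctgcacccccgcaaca
Mrps27 (chr2:32474034-32474233, plus strand): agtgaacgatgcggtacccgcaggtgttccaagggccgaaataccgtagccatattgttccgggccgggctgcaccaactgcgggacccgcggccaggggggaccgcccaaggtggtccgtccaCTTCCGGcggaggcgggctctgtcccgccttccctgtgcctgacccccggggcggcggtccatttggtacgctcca
Mrpl49 (chr1:212779298-212779497, minus strand): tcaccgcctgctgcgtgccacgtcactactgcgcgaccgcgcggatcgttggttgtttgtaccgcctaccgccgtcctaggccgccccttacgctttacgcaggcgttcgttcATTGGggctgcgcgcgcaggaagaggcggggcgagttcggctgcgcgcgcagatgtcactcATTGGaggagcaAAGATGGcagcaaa
Mrpl4 (chr8:27815601-27815800, plus strand): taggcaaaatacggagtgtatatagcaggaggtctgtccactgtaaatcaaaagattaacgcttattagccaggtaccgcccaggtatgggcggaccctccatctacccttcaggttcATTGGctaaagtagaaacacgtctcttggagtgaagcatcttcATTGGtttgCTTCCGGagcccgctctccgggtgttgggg
Mrpl52 (chr15:31852766-31852965, plus strand): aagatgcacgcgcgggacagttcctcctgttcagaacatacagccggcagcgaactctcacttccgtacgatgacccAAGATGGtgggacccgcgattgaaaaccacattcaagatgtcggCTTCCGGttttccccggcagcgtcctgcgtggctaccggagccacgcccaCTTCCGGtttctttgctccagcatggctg
The window of Mrpl17 holds the NRF1 letters at 2 places, each time on both strands, since the letters overlap with their own reverse when a C stands before them. That of Mrps27 holds the ETS letters in reverse, that of Mrpl49 CCAAT in reverse at 2 places and the YY1 letters after the start, that of Mrpl4 CCAAT in reverse at 2 places and the ETS letters in reverse, and that of Mrpl52 the YY1 letters and the ETS letters in reverse at 2 places. None of the 5 motifs was found in the window of Mrpl45, the member with the largest rise. Shares were counted over a longer stretch, from 250 bases before the start to 50 bases after it. There, YY1 letters were in 12 of the 43 members (27.9%), against 7.01% of all 33469 promoters. ETS letters were in 11 (25.6%, against 8.75%) and NRF1 letters in 5 (11.6%, against 3.33%). The E-box was in 4 (9.3%, against 6.42%) and CCAAT in 19 (44.2%, against 37.5%). Members were counted by gene and the background by promoter, and the 33469 promoters were not matched to the members. A match describes the letters in these stretches and was not tested as a binding site.

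In regenerating liver the listed members stood somewhat above control liver, and most differences did not pass. The summed level of the 19 listed members was 452, 470, 487 and 528 RPKM in the 4 regenerating livers, against 368, 365 and 295 RPKM in the 3 controls. All 19 had every regenerating liver above every control, as had 89.4% of all 1703 tested genes, with 3.58% the other way round, but only 2 rose at an adjusted p under 0.05 (limma), beside 21.2% of all tested genes. None fell, beside 0.763% of all. At an unadjusted p under 0.05, 18 were higher and 0 lower, a count largely set by the p-value that admitted each gene. The median member changed by 0.48, against 0.53 for all tested genes, and median scaling and quantile normalization, which each moved the median of all tested genes by -0.60, left 0 members called. Of all 1703 tested genes, 26 were higher and 54 lower after median scaling, and 20 and 46 after quantile normalization. In 12 of the 19 members control library 3 was the lowest control. Markers of other cells had higher sums beside these values, with Cdh5 and Emcn summing to 8.46 to 15.2 RPKM in regenerating liver, against 3.15 to 4.78 RPKM in controls, and Col1a1, Col1a2 and Col3a1 to 55.1 to 73.6 RPKM in regenerating liver, against 17.4 to 46.3 RPKM in controls. Of these genes Emcn and Col1a1 were called higher, whereas Cdh5, Col1a2 and Col3a1 did not pass (adjusted p = 0.094, 0.091 and 0.16, limma). The hepatocyte marker Tf had 19920 to 21190 RPKM in regenerating liver, against 12430 to 19520 RPKM in controls, and did not pass (adjusted p = 0.38, limma). The part of these markers in the result was not tested.

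The 2 members that rose are mitochondria-specific proteins of the large subunit, and both also rose in hepatoma against the same controls. Mrpl49 (GeneID 309176) had 15.5, 18.0, 19.3 and 23.8 RPKM in regenerating liver, against 11.5, 10.5 and 9.05 RPKM in controls. Its lowest regenerating liver lay well above the highest control (0.82 ± 0.15, adjusted p = 0.034, limma). Mrpl45 had 5.04, 6.24, 5.70 and 6.84 RPKM in regenerating liver, against 3.23, 3.43 and 3.52 RPKM in controls (0.66 ± 0.12, adjusted p = 0.032, limma). Its level stayed low among the members in both groups. Both calls were lost without control library 1 or 2 and without regenerating library 2, 3 or 4 (adjusted p from 0.054 to 0.16), and that on Mrpl49 also without control library 3 (adjusted p = 0.072). The changes themselves kept their size in these fits, at 0.71 to 0.89 for Mrpl49 and 0.60 to 0.67 for Mrpl45. The log2 fold change of Mrpl45 was -0.03 under quantile normalization.

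The other 17 members did not pass, and their changes ran from 0.25 to 0.74. Mrpl37, a mitochondria-specific protein of the large subunit, had the largest of these, with 41.1 to 52.4 RPKM in regenerating liver, against 20.3 to 31.6 RPKM in controls (0.74 ± 0.17, adjusted p = 0.063, limma), and was picked out after its values were seen. The groups of Mrpl37 lay clearly apart, and its change was larger than that of Mrpl45. Mrps18b, a small-subunit paralogue of the bacterial S18 protein and the most abundant member of this table, had 63.4, 59.5, 63.1 and 59.0 RPKM in regenerating liver, against 52.3, 46.4 and 38.9 RPKM in controls (0.42 ± 0.13, adjusted p = 0.19, limma). Mrps25, of the small subunit, had 21.2, 25.3, 22.0 and 26.6 RPKM in regenerating liver, against 18.6, 20.4 and 19.1 RPKM in controls (0.28 ± 0.12, adjusted p = 0.68, limma). Mrpl50, of the large subunit, had 13.4, 15.1, 15.5 and 16.9 RPKM in regenerating liver, against 12.9, 12.4 and 12.5 RPKM in controls (0.25 ± 0.12, adjusted p = 0.76, limma). In each of these 3 the lowest regenerating liver was within 7 RPKM of the highest control, and all 3 log2 fold changes were negative under both scalings. By place, 2 of 12 members of the large subunit and 0 of 7 of the small subunit rose, beside 21.2% of all tested genes, with medians of 0.52 and 0.43. Of the wider machinery, 1 of 7 tested aminoacyl-tRNA synthetases and partners rose, the leucyl-tRNA synthetase Lars2, at 4.25 ± 0.734 RPKM in regenerating liver and 2.13 ± 0.185 RPKM in controls, and 1 of 7 assembly factors, the rRNA methyltransferase Ftsj2, at 2.40 ± 0.240 RPKM in regenerating liver and 1.33 ± 0.107 RPKM in controls (SD, n = 4 and 3). Over the 5 lists 2 of 19 tested genes rose, beside 21.2% of all tested genes. Neither Lars2 nor Ftsj2 passed after either scaling, and none of the 3 ribosomal proteins with other names, the 2 genes of DNA replication and transcription or the 1 regulator passed in the first place.

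Morris hepatoma and regenerating liver were compared directly over the 17 members listed in both rat tables, where the hepatoma had the higher levels. Of these 12 were higher in hepatoma, 0 lower, and 5 did not pass (limma, adjusted p under 0.05). At an unadjusted p under 0.05, 13 were higher and 0 lower, without a count of all tested genes at that level. In 13 of the 17 every hepatoma lay above every regenerating liver. Among all 1673 tested genes 86.3% differed, 81.5% were higher and 4.72% lower, 84.5% lay above without overlap and 5.92% below, and the median member differed by 0.77, against 1.47 for all tested genes. After median scaling 0 members were higher and 14 lower, beside 496 and 474 of all 1673 tested genes. After quantile normalization 0 members were higher and 13 lower, beside 510 and 456 of all. The median of all tested genes moved by -1.44 and -1.41.

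Mrpl45 differed most, with 21.1 to 26.5 RPKM in the 4 hepatomas and 5.04 to 6.84 RPKM in the 4 regenerating livers (1.85 ± 0.13, adjusted p = 3.5e-08, limma). Its log2 fold change stayed positive under median scaling and quantile normalization but did not pass there (0.30 and 0.32, adjusted p = 0.17 and 0.088, limma). Mrpl17 had 78.1 to 122.7 RPKM in hepatoma and 29.7, 34.7, 33.5 and 40.6 RPKM in regenerating liver (1.40 ± 0.16, adjusted p = 7.2e-06, limma). Mrps2, counterpart of a bacterial protein of the small subunit, had 27.9, 43.3, 31.2 and 33.4 RPKM in hepatoma, and 13.0, 15.7, 14.8 and 17.1 RPKM in regenerating liver (1.10 ± 0.15, adjusted p = 4.8e-05, limma). Hepatoma library 2 was the highest in both, and no library of the other group came near. Mrpl19 had 15.2 to 24.6 RPKM in hepatoma and 7.81, 7.88, 9.43 and 8.62 RPKM in regenerating liver (1.06 ± 0.16, adjusted p = 0.00019, limma). Mrpl12, a stalk protein like Mrpl10, had 60.3, 83.7, 61.4 and 72.3 RPKM in hepatoma and 27.1, 32.4, 37.2 and 38.4 RPKM in regenerating liver (1.02 ± 0.15, adjusted p = 0.00017, limma). Mrpl3, counterpart of a bacterial protein that reaches toward the peptidyl transferase centre, had 43.0, 51.3, 35.9 and 37.2 RPKM in hepatoma and 21.5, 20.9, 19.0 and 19.6 RPKM in regenerating liver (1.00 ± 0.15, adjusted p = 0.00015, limma). Of these 6 members all but Mrpl45 had negative log2 fold changes under both scalings. The 5 members that did not pass were Mrps18b, Mrpl22, Mrpl37, Mrps18a and Mrpl55, and the groups overlapped in all of them but Mrps18b. Mrps18a, for example, had 48.5 to 69.2 RPKM in hepatoma and 43.6 to 57.6 RPKM in regenerating liver. Tf, the single hepatocyte marker in both tables, had 69.6 to 6594 RPKM in hepatoma and 19920 to 21190 RPKM in regenerating liver, and did not pass. The endothelial gene Cdh5 was at 30.1 ± 9.25 RPKM in hepatoma and 7.20 ± 2.40 RPKM in regenerating liver (SD, n = 4 each), and Col1a1, Col1a2 and Col3a1 summed to 355.7 to 953.0 RPKM in hepatoma, against 55.1 to 73.6 RPKM in regenerating liver, all 4 called higher. The part of these markers in the differences was not tested.

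**Figure D3:**
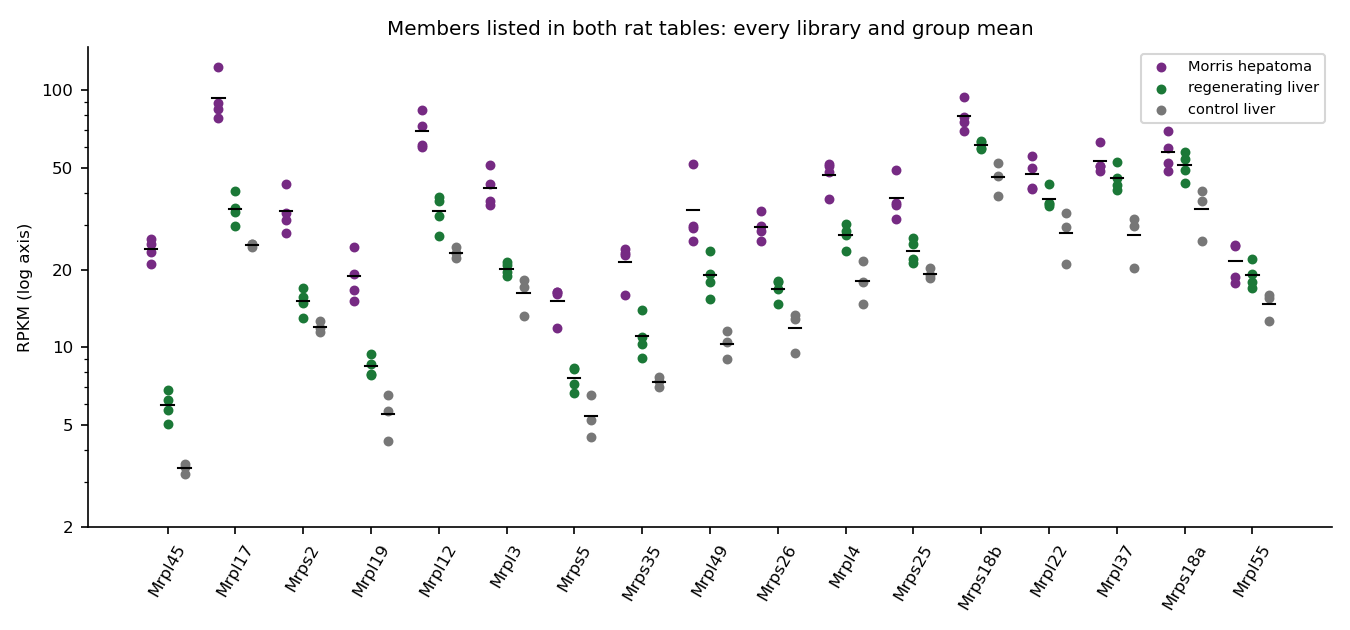
RPKM (log axis) of the 17 members listed in both rat tables, ordered by their log2 fold change of hepatoma over regenerating liver. Each point is a library and each bar a group mean, with hepatoma left, regenerating liver in the middle and control right; Mrpl45 shows the widest step, 21.1 to 26.5 RPKM in hepatoma against 5.04 to 6.84 RPKM in regenerating liver, whereas the groups overlap in Mrps18a.

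The tables of the DEN and Morris models, which share no samples, list 17 members in common, 68% of the 25 DEN members and 34% of the 50 hepatoma members. All 17 were lower in livers with DEN tumours and higher in hepatoma, each with no overlap between its groups, and 8 passed both tests, lower in DEN liver and higher in hepatoma: Mrpl4, Mrpl18, Mrpl21, Mrpl24, Mrpl49, Mrps18a, Mrps24 and Mrps36. Of all 2103 genes tested in both tables, 49.7% were lower and higher in the same way without overlap and 22.6% passed both tests in these directions. In a fit over the 2103 genes tested in both tables, the DEN change lay below the Morris change in all 17 members (limma, adjusted p from 1.7e-06 to 0.016), as it did in 66.7% of all genes, with a median difference of -1.68 for members and -1.57 for all genes. The fit was added after the opposite directions were seen, and every gene had entered both tables through a p under 0.05 on the same libraries. That all 17 differences passed was therefore largely set beforehand. When the libraries of each species were scaled to their medians, 1 of the 17 differences passed, beside 18.2% of all genes in that direction. After quantile normalization 3 passed, beside 22% of all genes. The 2 models also differ in species, in comparison tissue and in the age of the animals, which cannot be told apart here.

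Mrpl45 had the widest difference between the models, -2.79 ± 0.17 (adjusted p = 1.7e-06, limma), although its own change in DEN liver did not pass. Mrpl4, lower with DEN tumours at 17.3 to 21.9 RPKM, stood at 48.0, 51.5, 37.7 and 50.6 RPKM in hepatoma, against 21.7, 17.9 and 14.7 RPKM in control rats (1.33 ± 0.20, adjusted p = 0.00031, limma). Mrps36, the dehydrogenase subunit, stood at 61.6, 78.7, 51.4 and 58.4 RPKM in hepatoma, against 26.3, 27.1 and 24.3 RPKM in control rats, and has 4 annotated copies in the rat (1.22 ± 0.19, adjusted p = 0.00043, limma). In both genes every hepatoma was far above every control, the reverse of the order of the DEN groups. Mrpl49 had 8.52, 10.8 and 10.7 RPKM in DEN livers with tumours, against 17.3, 17.9 and 18.8 RPKM before tumours (-0.80 ± 0.13, adjusted p = 0.0065, limma). Mrpl24, counterpart of the protein that starts assembly of the large subunit in bacteria, had 35.4, 41.4 and 38.0 RPKM with DEN tumours, against 69.5, 74.2 and 55.2 RPKM before tumours (-0.77 ± 0.16, adjusted p = 0.015, limma). In hepatoma Mrpl24 had 27.6, 38.5, 27.7 and 26.7 RPKM, against 14.6, 14.7 and 9.67 RPKM in control rats (1.16 ± 0.21, adjusted p = 0.0013, limma). Mrpl21 had 8.78, 9.50 and 7.88 RPKM with DEN tumours, against 14.8, 19.1 and 12.6 RPKM before tumours (-0.75 ± 0.17, adjusted p = 0.022, limma). The order was again turned round in hepatoma, where Mrpl21 had 32.6, 37.8, 29.1 and 35.8 RPKM, against 13.9, 12.2 and 10.3 RPKM in control rats (1.41 ± 0.18, adjusted p = 9.1e-05, limma). Mrps24 and Mrpl18 rose less in hepatoma, by 0.88 ± 0.21 and 0.77 ± 0.20 (adjusted p = 0.0071 and 0.011, limma). Under median scaling all 8 of these log2 fold changes in hepatoma were negative, and under quantile normalization 5 of them, those of Mrpl4, Mrpl49 and Mrps36 being the exceptions.

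With 1 library fewer, some of the DEN calls were lost while the changes stayed similar in size. Without library 1 before tumours the calls on Mrps18a, Mrpl21 and Mrpl24 were lost (adjusted p = 0.085, 0.076 and 0.068), and without library 2 before tumours those on the same genes and on Mrps24 (0.075, 0.086, 0.076 and 0.063). Without library 3 with tumours, Mrps18a, Mrpl21 and Mrps24 no longer passed (0.08, 0.082 and 0.051), and without library 1 with tumours Mrpl21 did not (0.054). In these fits the log2 fold change was -0.70 to -0.58 for Mrps18a, -0.77 to -0.60 for Mrpl21, -0.73 and -0.68 for Mrpl24, and -0.78 and -0.74 for Mrps24. The number of members lower with tumours was 7 without tumour library 3, beside 1093 of all 3756 tested genes. Without libraries 1 and 2 of the earlier group it was 7 and 6, beside 922 of all 3742 and 938 of all 3747. With every library kept, 1823 of all 3684 were lower.

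**Figure D4:**
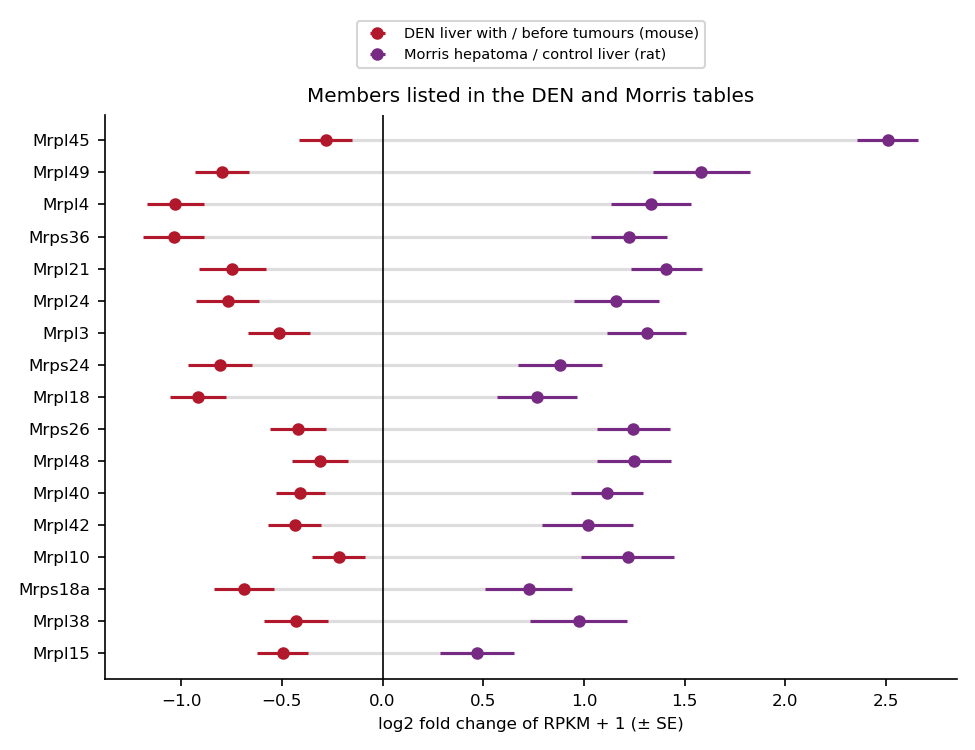
Log2 fold change of RPKM + 1 with its standard error for the 17 members listed in the DEN and Morris tables: livers with DEN tumours over livers before tumours in red (n = 3 each) and Morris hepatoma over control in purple (n = 4 and 3). Every red point lies left of 0 and every purple point right of it; the widest gap is that of Mrpl45, -0.28 and 2.51, and the values are not scaled between libraries.

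The tables of all 3 models list 6 members: Mrpl3, Mrpl4, Mrpl45, Mrpl49, Mrps18a and Mrps26. In each of them livers with DEN tumours were lower than livers before tumours, and hepatoma and regenerating liver, set against the same controls, were both higher. The DEN and regenerating tables, which share no libraries, list no other members in common, so the 6 are 24% of the DEN members and 31.6% of the regenerating members. Mrpl49 was the only one called in opposite directions in DEN and regenerating liver, beside 6.43% of the 513 genes tested in both tables, and all 6 lay apart without overlap in these directions, beside 57.3%. Mrps26, a mitochondria-specific protein of the small subunit, had 15.2, 12.1 and 12.8 RPKM with DEN tumours, against 19.1, 19.1 and 16.3 RPKM before tumours (-0.42 ± 0.14, adjusted p = 0.11, limma). In the rat it had 29.7, 33.9, 28.5 and 25.8 RPKM in hepatoma and 14.7, 16.9, 18.1 and 18.0 RPKM in regenerating liver, against 13.3, 12.9 and 9.54 RPKM in controls. Hepatoma was thus highest, and regenerating liver lay between hepatoma and control without overlap, with 1.25 ± 0.18 in hepatoma (adjusted p = 0.00027, limma) and 0.48 ± 0.14 in regenerating liver (adjusted p = 0.16, limma). Mrpl3 had 4.51, 6.72 and 4.93 RPKM with DEN tumours, against 8.07, 7.65 and 8.33 RPKM before tumours, which did not pass (-0.51 ± 0.15, adjusted p = 0.075, limma). In the rat, Mrpl3 rose by 1.31 ± 0.20 in hepatoma (adjusted p = 0.00033, limma) and differed by 0.31 ± 0.13 in regenerating liver (adjusted p = 0.62, limma), where its 4 livers at 19.0 to 21.5 RPKM came close to the controls at 13.2 to 18.3 RPKM. Mrpl4 had 27.2, 23.8, 30.3 and 28.5 RPKM in regenerating liver (0.58 ± 0.15, adjusted p = 0.1, limma). Mrps18a, the large-subunit paralogue of bacterial S18, had 30.1, 28.2 and 23.0 RPKM with DEN tumours, against 48.2, 43.1 and 41.1 RPKM before tumours (-0.69 ± 0.15, adjusted p = 0.019, limma). Its hepatoma and regenerating values overlapped, and against controls the change was 0.73 ± 0.22 in hepatoma (adjusted p = 0.024, limma) and 0.57 ± 0.17 in regenerating liver (adjusted p = 0.18, limma). The hepatoma call on Mrps18a was lost without control library 1 or 3 or hepatoma library 2 or 4 (adjusted p from 0.05 to 0.082), with log2 fold changes of 0.54 to 0.79. Mrpl45 in DEN liver had 10.9, 9.98 and 9.56 RPKM with tumours and 11.9, 14.1 and 11.7 RPKM before tumours (-0.28 ± 0.13, adjusted p = 0.38, limma). Under both scalings Mrpl45 and Mrps26 were positive in DEN liver, Mrpl3, Mrps18a and Mrps26 were negative in hepatoma, where Mrpl4 and Mrpl49 were negative under median scaling, and Mrpl3, Mrps18a and Mrps26 were negative in regenerating liver, where Mrpl4 was negative under median scaling and Mrpl45 under quantile normalization.

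**Figure D5:**
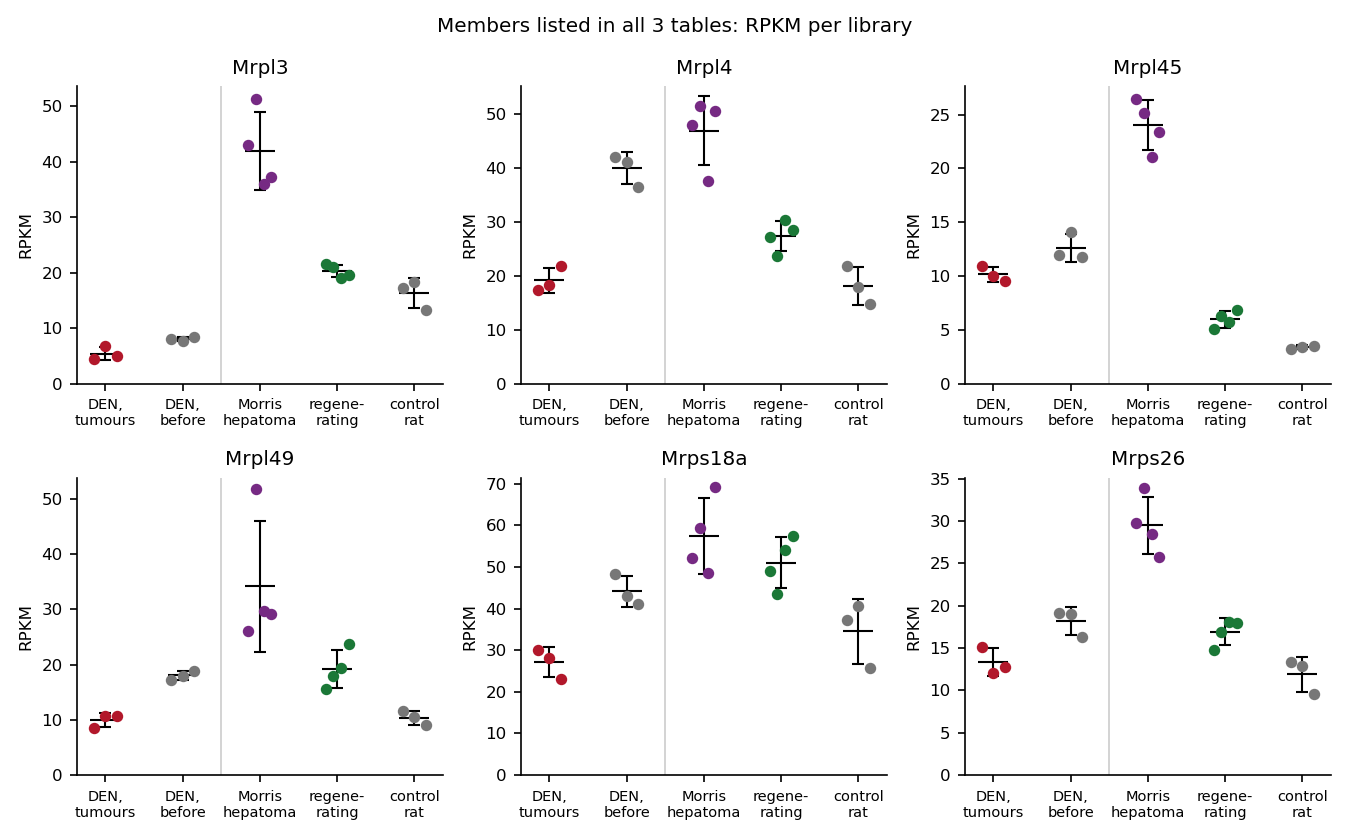
RPKM of the 6 members listed in all 3 tables, one point per library with mean and SD, in DEN livers with tumours and before tumours (mouse, n = 3 each), left of the grey line, and in Morris hepatoma (n = 4), regenerating liver (n = 4) and control liver (rat, n = 3), right of it. Points with tumours lie below those before tumours in every panel, and hepatoma lies above control in every panel, with 21.1 to 26.5 RPKM against 3.23 to 3.52 RPKM for Mrpl45; mouse and rat levels come from separate tables.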

How the data were processed

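RNA-seq of 17 liver and tumour samples was analysed from 3 tables deposited by the authors. The deposited values per library were read as RPKM from their steps, since the file headers name no unit, and 0.001 stands for no reads. Per the file headers the tables also hold a log2 ratio and a Holm p-value for each gene, and every deposited p-value is under 0.05. Per the labels' protocols, tissue was flash frozen and RNA extracted with Trizol, RNAeasy or both. The aligner, counting, strand handling and genome build are not given in the sources used here. Implied depth was 31.6 to 40.7 M reads in the DEN libraries and could not be resolved for hepatoma and regenerating libraries.

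Log2(RPKM + 1) was tested with limma 3.58.1 (trend, robust, two-sided) in R 4.3.3, for genes that reached 1 RPKM in a number of libraries equal to the size of the smaller group. Because the tables are preselected, Benjamini-Hochberg adjustment used all annotated protein-coding genes, which number 21951 in GENCODE M21 for mouse and 23154 in RefSeq's GRCr8 annotation for rat. The difference between the DEN and Morris changes was fitted over genes listed in both tables, an addition made after the opposite directions were seen. The fits were checked on simulated data. Named members were, per comparison, the 6 largest called rises and the 6 largest called falls, and against the control or earlier group also the most abundant member and the 2 with the largest adjusted p, plus members listed in all tables or called in opposite directions. Alternatives changed the pseudocount, filter, scaling, adjustment, fit and libraries. Median scaling and quantile normalization used the listed, tested genes only. The members and lists were chosen with earlier results of these data known. Promoter sequences are from RefSeq GRCr8. Figures were drawn with matplotlib 3.10.9 in Python 3.11.15.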

Additional observations from a re-analysis of the deposited data

Results flagged for a closer look

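In hepatoma library 2, Mrpl49 stood at 51.7 RPKM, farther from the other 3 hepatomas than Dixon's test allows at its 95% level. Mrpl24 stood at 38.5 RPKM in the same library by the same measure. The 2 cases came from 37 sets of 4 libraries, and chance flags about 1 in 20 such sets.

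The changes in livers with DEN tumours and in Morris hepatoma differed in 17 of the 17 members listed in both tables, by the test of the difference itself (limma), as they did downward in 66.7% of all genes tested in both. The p-values that listed these genes and the opposite directions, seen before the test was added, largely set that outcome. After median scaling 1 of the 17 differed, beside 18.2% of all genes downward, and after quantile normalization 3, beside 22%.

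Morris hepatoma and regenerating liver differed in 12 of the 17 members listed in both rat tables (limma), higher in hepatoma, beside 81.5% of all genes. After median scaling 0 of the 17 were higher and 14 lower, beside 496 and 474 of all 1673 tested genes. After quantile normalization 0 were higher and 13 lower, beside 510 and 456 of all.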

How the results depend on the processing

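Scaling between libraries decided most directions, and the cause was not tested. With library medians set equal, 2 members were lower in DEN liver, 1 was higher and 32 lower in Morris hepatoma, 0 were higher in regenerating liver, and 0 were higher and 14 lower in hepatoma over regenerating liver. With quantile normalization 0 were lower in DEN liver, 2 higher and 15 lower in hepatoma, 0 higher in regenerating liver, and 0 higher and 13 lower in hepatoma over regenerating liver. The DEN change lay below the Morris change in 1 member after median scaling and in 3 after quantile normalization. Counts or shares of all tested genes under both scalings stand beside these in the Results.

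Named members whose sign turned had these log2 fold changes. In DEN liver under median scaling Mrps21 had 0.017, Mrpl11 0.25, Mrpl10 0.22, Mrpl45 0.13 and Mrps26 0.0010, and under quantile normalization Mrps21 had 0.35, Mrpl11 0.26, Mrpl10 0.37, Mrpl45 0.19 and Mrps26 0.10. In hepatoma over control Mrps16, lower throughout, gained its call at -2.23 and -1.56 under median scaling and quantile normalization. There, under median scaling, Mrpl17 had -0.013, Mrpl19 -0.10, Mrpl13 -0.20, Mrps27 -0.13, Mrpl49 -0.21, Mrpl54 -1.32, Mrpl32 -1.49, Mrps26 -0.55, Mrpl3 -0.51, Mrps18a -1.13, Mrpl4 -0.50, Mrpl21 -0.39, Mrpl24 -0.64, Mrps24 -0.96, Mrpl18 -1.04 and Mrps36 -0.62. Under quantile normalization Mrpl19 had -0.020, Mrps27 -0.010, Mrpl54 -0.24, Mrpl32 -1.01, Mrps26 -0.26, Mrpl3 -0.075, Mrps18a -0.41, Mrpl21 -0.074, Mrpl24 -0.34, Mrps24 -0.34 and Mrpl18 -0.69 in that comparison. In regenerating liver under median scaling Mrps18b had -0.29, Mrpl50 -0.43, Mrps25 -0.42, Mrps26 -0.20, Mrpl3 -0.38, Mrps18a -0.14 and Mrpl4 -0.11, and under quantile normalization Mrpl45 had -0.026, Mrps18b -0.12, Mrpl50 -0.30, Mrps25 -0.27, Mrps26 -0.060, Mrpl3 -0.25 and Mrps18a -0.010. In hepatoma over regenerating liver under median scaling Mrpl17 had -0.25, Mrps2 -0.50, Mrpl19 -0.48, Mrpl12 -0.62 and Mrpl3 -0.62, and under quantile normalization Mrpl17 had -0.012, Mrps2 -0.42, Mrpl19 -0.48, Mrpl12 -0.35 and Mrpl3 -0.49.

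The member median minus the median of all tested genes was -0.75 in hepatoma, -0.13 in regenerating liver and -0.91 in hepatoma over regenerating liver at a pseudocount of 0.1. At a pseudocount of 5 it was -0.15 in DEN liver, -0.068 in hepatoma, 0.048 in regenerating liver and -0.34 in hepatoma over regenerating liver. Median scaling gave -0.74 in hepatoma, -0.13 in regenerating liver and -0.87 in hepatoma over regenerating liver, a filter at 5 RPKM gave -0.58 in hepatoma and -0.82 in hepatoma over regenerating liver, and no filter gave -0.30 in hepatoma. With the filter at 5 RPKM 1 member was higher in regenerating liver, beside 149 of all 1049 tested genes. Adjusted over the tested genes alone, 21 members were lower in DEN liver, beside 2647 of all 3684 tested genes. With the same adjustment 18 were higher in regenerating liver, beside 1561 of all 1703. Another alternative was 1 fit of all 3 rat groups, over the 17 members listed in both tables. Of these 16 were higher and 0 lower in hepatoma, beside 1551 and 63 of all 1688 tested genes, with a median difference of -0.66. In regenerating liver 1 was higher, beside 229 of all 1494. The fit holds only 17 of the 50 hepatoma members, and in regenerating liver Mrpl49 had the same log2 fold change of 0.82 with an SE of 0.21 (adjusted p = 0.1, limma). Without hepatoma libraries 3 and 4, an alternative chosen after seeing the data, 0 members were lower.

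Leaving out each library in turn gave 6 to 14 members lower in DEN liver with a median difference of -0.10 to 0.043, 39 to 41 higher and 0 to 1 lower in hepatoma with -0.54 to -0.37, 0 to 2 higher in regenerating liver with -0.14 to -0.012, and 11 to 12 higher in hepatoma over regenerating liver with -0.71 to -0.61. Of 3742 to 3778 tested genes, 922 to 1962 were lower in DEN liver in these fits. Of 8098 to 8334 tested genes, 6720 to 6967 were higher and 346 to 838 lower in hepatoma. In regenerating liver 20 to 338 of 1661 to 1741 were higher, and in hepatoma over regenerating liver 1323 to 1378 of 1673 to 1695. The DEN change lay below the Morris change in 16 to 17 members, beside 63.6% to 67.7% of all genes. Deviations of libraries that share a replicate number were correlated at -0.317 to 0.151. These values cannot decide whether the numbers pair libraries, since the deviations were taken from group means of few libraries, and the labels do not say. With the replicate number as a block 10 members were lower in DEN liver, beside 1436 of all 3684 tested genes. In hepatoma 40 were higher and 0 lower, beside 6725 and 242 of all 8233. In regenerating liver 0 were higher, beside 23 of all 1703. In hepatoma over regenerating liver 12 were higher, beside 1342 of all 1673.

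The tables list preselected genes, so neither scaling rests on a whole transcriptome, and a change in total RNA cannot be told apart from a change in these genes. Depth in the hepatoma and regenerating libraries is unknown, which leaves the counting error of low values unknown.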
